A study of Homo sapiens with 7 samples.

Results

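The DNA repair genes described here are the 54 transcripts of the deposited table whose gene symbol belongs to the RAD, FANC, XRCC, ERCC, MSH or MLH series (the letters followed by a number, or by a letter for FANC), together with BRCA1, BRCA2, ATM and ATR. They are 54 of 25918 transcripts, each with a symbol of its own, and all 54 are annotated as coding. The rule on names uses no measured value, though it was set with earlier results of these data known. N6-methyladenosine (m6A), an internal modification of messenger RNA, was mapped in untreated HepG2 cells, a human hepatocellular carcinoma line, with 4 libraries precipitated with an anti-m6A antibody (m6A-IP) and 3 input libraries, for which the labels give no antibody. The deposited table lists, for all 7 libraries together, how strongly each transcript was expressed as a quantile, and where each peak lay, in which exon and segment and with what score. Replicate error, depth and a test of m6A-IP against input could therefore not be had. A quantile ranks a transcript among all those of the table, from 0 to 1, and the peak score is the authors' own, with no stated scale and no value under 2.00. The shares below are counts over genes or peaks of this table and carry no test. The hepatocyte markers expected of the line were low: ALB, AFP, APOB, SERPINA1 and TTR stood at the lowest quantile of the table, TF at 0.337, APOA1 at 0.403, HNF4A at 0.509 and FGB at 0.619, and none of these 9 had a peak. These values go against a hepatocyte profile, and the cells are called HepG2 after their label.

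Cells repair DNA by several routes. Mismatch repair corrects errors of replication, nucleotide excision repair cuts out bulky lesions, the Fanconi anaemia pathway unhooks crosslinks between strands, and homologous recombination and end joining mend double-strand breaks. Checkpoint kinases such as ATM and ATR signal damage and hold the cell cycle. m6A is written mainly by the METTL3-METTL14 complex on a consensus called RRACH, which reads purine, purine, A, C and then A, C or U, and reader proteins of the YTH family bind it and act on the stability and translation of the message.

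To show what lay under the peaks, table rows were matched to transcripts of GENCODE release 29 by name, strand, genomic span and the number and length of the exon of every peak. With a tolerance of 10 nt, 13 of the 28 repair genes with a peak were matched, with 31 peaks, and 5 of these genes matched exactly. The stretches below are 27 nt around 1 RRACH site within 50 nt of a peak, 5' to 3', in GRCh38, with T for U and the RRACH site in capitals. They come from the highest peak of each of the 7 highest-scoring matched genes, plus ATM, and where a GGAC site lay in the window it was taken in preference to other sites.
RAD54L2, coding sequence, plus strand, chr3:51662656-51662682: gctgttcccgGGACAgctctcggaact
MSH6, coding sequence, plus strand, chr2:47800746-47800772: tcgaaagactGGACTtattactcccaa
ERCC4, coding sequence, plus strand, chr16:13935185-13935211: cccagctgagAGACTatatcactcttg
FANCA, 3' UTR, minus strand, chr16:89738074-89738100: gggccttctcAAACCgccggccacact
MLH3, coding sequence, minus strand, chr14:75046983-75047009: tccgaaagagAAACTcaaacaatgggg
XRCC2, near the stop codon, minus strand, chr7:152648812-152648838: tgtgtgatgtGGACAtagactacagac
RAD9A, near the stop codon, plus strand, chr11:67397766-67397792: cagccaatcaGGACTttccagacttgg
ATM, near the stop codon, plus strand, chr11:108365415-108365441: cagtgttggtGGACAagtgaatttgct

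The A of the site lay 7 nt upstream of the listed position in MSH6 (-7), 5 nt downstream in ERCC4 and at the listed position itself in MLH3 (0 nt). It lay 2 nt away in XRCC2, 6 nt in ATM, and farther off in RAD54L2 (-17), FANCA (-33) and RAD9A (47). Only ATM and MLH3 of these 8 matched exactly: the genomic span of the matched transcript differed in length from the table's by 1 nt in MSH6, 2 nt in RAD54L2 and XRCC2, 3 nt in ERCC4 and RAD9A and 9 nt in FANCA, so their offsets may be off by a few nucleotides. Of the 31 matched peaks, 30 had RRACH within 50 nt (96.8%), against 90.4% of the 3694 peaks of all transcripts matched in the same way. The motif is short and common: windows 300 nt away on the same transcripts held it in 90.3% of cases for the repair genes and 75.3% for all matched transcripts. GGAC was found within 50 nt of 17 of the 31 peaks (54.8%), against 33.9% of the windows 300 nt away on the repair transcripts, and near 66.0% of all matched peaks. The only matched peak without RRACH was the transcript start peak of XRCC2 at position 69.

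Of the 54 genes, 28 (51.9%) had at least 1 listed peak and 26 had none. Of all transcripts 27.9% had a peak, and of coding transcripts above the lowest quantile 45.8%. Leaving out peaks at the transcript start, 26 of the 54 had a peak (48.1%), against 24.7% of all transcripts. Of the repair genes, 52 lay above that lowest value (0.314), which 8139 transcripts share, and 28 of these 52 had a peak (53.8%). The genes at the lowest value were MSH4 and RAD51AP2, both of which act in meiosis. The 28 genes carried 57 peaks, 12 with 1 peak, 8 with 2, 3 with 3 and 5 with 4, which was the most. The mean was 2.04 peaks per transcript with a peak, against 1.76 over all transcripts with a peak, and 17.9% against 7.65% had 4 or more. Their scores had a median of 2.73 (quartiles 2.38 and 3.55), against 3.15 (2.52 and 3.96) for all 12769 peaks. A score of at least 4 was reached by 6 repair genes (11.1%), against 10% of all transcripts and 16.6% of coding transcripts above the lowest quantile. At a score of at least 3 there were 18 repair genes (33.3%), against 19.3% and 31.8%.

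**Figure D1:**
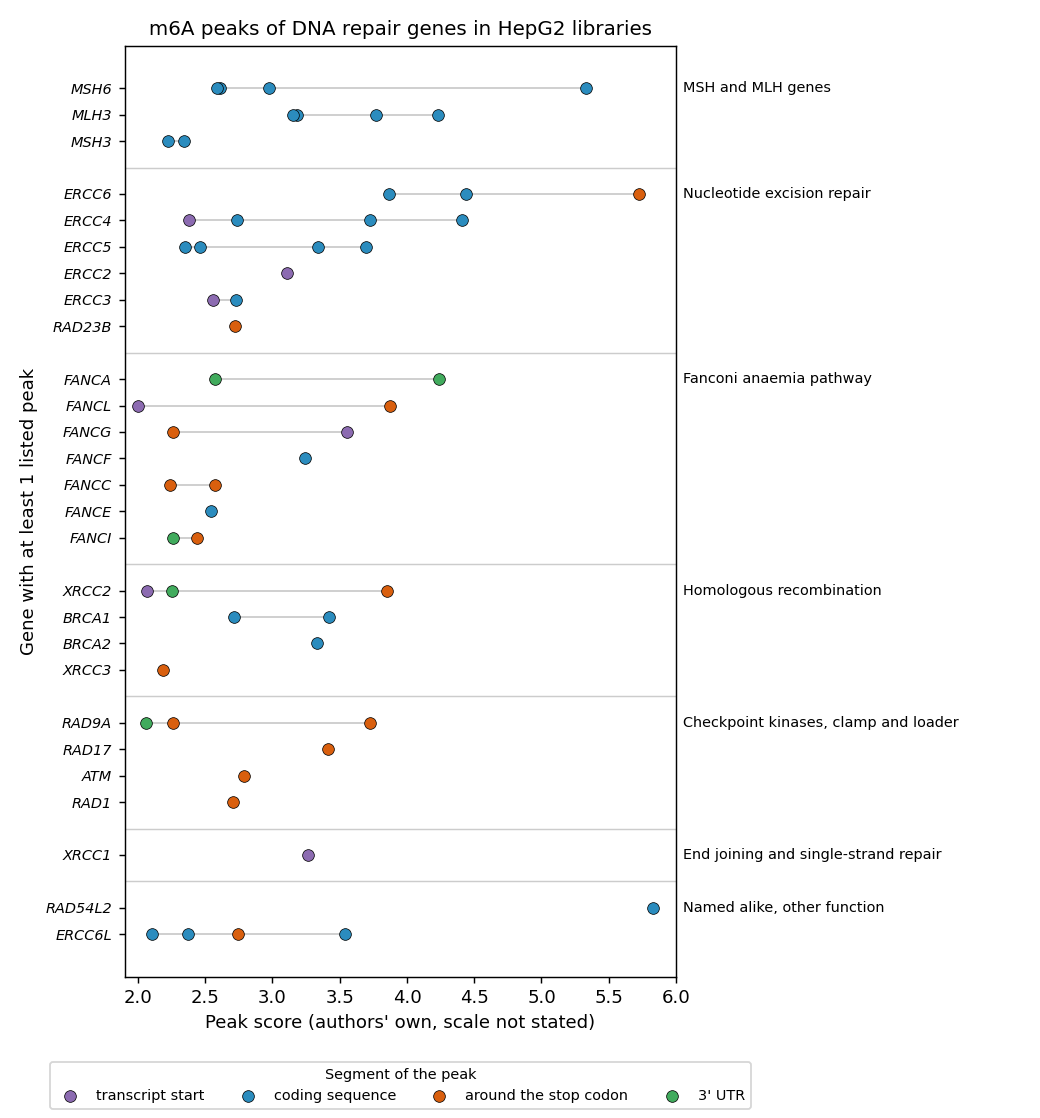
Each point is 1 listed m6A peak; the x axis gives the authors' peak score and each row is 1 of 27 repair genes with a peak, grouped by function and coloured by segment, with grey lines joining the peaks of a gene. RAD54L2 (5.83), ERCC6 (5.72) and MSH6 (5.33) hold the 3 peaks above 5, and the other peaks of MSH6 lie at or under 2.98.

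Of the 7 MSH and MLH genes 4 had peaks (57.1%), in each case in the coding sequence only. Beside this and the groups below stands 45.8%, the share of coding transcripts above the lowest quantile with a peak. From 0.7 to under 0.8, where the median quantile of the 7 MSH and MLH genes lay, 65.1% of coding transcripts had one. The groups are small, and differences between them were not tested. Most of the family acts in mismatch repair, while MSH4 and MSH5, which had no listed peak, act in meiotic recombination. MSH6, a subunit of the complex that recognises single mismatches (chromosome 2, 47863725 to 47887596 in the table, whose genome build is not given in the sources used here), had 4 peaks, all in exon 4, which is 2545 nt long. Their scores were 2.98 at position 1586, 2.61 at 2376, 5.33 at 2934 and 2.59 at 3185 of the transcript. The peak at 2934, whose sequence is shown above, scored higher than 95.7% of all peaks of the table, while the other 3 peaks of MSH6 were below the table's median. MLH3, a subunit of a MutL complex (chromosome 14, 74550220 to 74587988), likewise had its 4 peaks in a long exon, exon 2 of 3343 nt, with scores of 3.19, 3.77, 4.23 and 3.15 at positions 405, 660, 2875 and 3406. All of them were above the table's median, at an expression quantile of only 0.587. MSH3, which recognises small loops, had 2 peaks of 2.34 and 2.22 in exon 1. MSH5 stood at a quantile of 0.829, close to that of MSH6 (0.841).

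Nucleotide excision repair had peaks in 6 of its 9 genes (66.7%), 15 in all with a median score of 3.11. The median quantile of the 9 genes was 0.897, and from 0.8 to under 0.9 71.5% of coding transcripts had a peak. ERCC6 (also CSB), the remodeller that starts repair behind a stalled RNA polymerase (chromosome 10, 50334497 to 50417153), had the highest-scoring peak of any of these repair genes proper, 5.72 near the stop codon in exon 21 (2790 nt), and peaks of 4.44 in exon 5 (745 nt) and 3.87 in exon 18 (708 nt). All 3 peaks of ERCC6 exceeded the table's median. ERCC8 (also CSA), its partner in the same step, had no listed peak at a quantile of 0.569. ERCC4 (also XPF), the nuclease that cuts 5' of the lesion, had 4 peaks at a quantile of 0.529. They scored 2.38 at the transcript start, 4.41 in exon 8 (598 nt), and 2.73 and 3.73 in exon 11 (4735 nt). ERCC1, the obligate partner of ERCC4, had no listed peak at 0.921, so the less expressed subunit of that nuclease was the one with peaks. ERCC5 (also XPG), which cuts on the 3' side, had 4 coding sequence peaks of 3.70, 2.46, 3.34 and 2.35. The TFIIH helicases ERCC2 and ERCC3 had a transcript start peak each, of 3.11 and 2.56, and ERCC3 a coding sequence peak of 2.73. RAD23B, a partner of the damage sensor, had 1 peak of 2.72 near the stop codon at a quantile of 0.931.

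The Fanconi anaemia pathway had peaks in 7 of its 10 genes (70%). The median quantile of the 10 was 0.727, and from 0.7 to under 0.8 65.1% of coding transcripts had a peak. FANCA, FANCC, FANCE, FANCF, FANCG and FANCL, all subunits of the core complex that attaches ubiquitin, had peaks, and FANCB did not, at 0.506. FANCA had 2 peaks in the 3' UTR, both in exon 43, of 4.24 and 2.57. FANCL, the ubiquitin ligase subunit, had 3.87 near the stop codon and 2.00 at the transcript start. This start peak was just above the lowest score of the table. FANCG had 3.55 at the transcript start and 2.26 around the stop. FANCC had 2.24 and 2.57 near the stop codon, FANCE 2.54 and FANCF 3.24 in the coding sequence. The median of the 12 peaks was 2.56, and 3 of the 7 genes with a peak had none above 3. Of the pair that the core complex modifies, FANCI had 2 weak peaks (2.44 and 2.26) at a quantile of 0.845 and FANCD2 none at 0.731. FANCM, the helicase that anchors the complex on DNA, had none at 0.534.

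Homologous recombination had peaks in 4 of its 13 genes (30.8%): BRCA1, BRCA2, XRCC2 and XRCC3. The median quantile of the 13 was 0.712, and from 0.7 to under 0.8 65.1% of coding transcripts had a peak. BRCA1, a tumour suppressor that starts resection of breaks (chromosome 17, 38449840 to 38530994), had 2 peaks 1662 nt apart in exon 10, the exon of 3426 nt that holds most of its coding sequence, with scores of 2.71 and 3.42. BRCA2, a tumour suppressor that acts on resected breaks (chromosome 13, 31787617 to 31871809), had 1 peak of 3.33 in exon 27. Its longest exon, of 4932 nt in GENCODE, had no listed peak. BRCA2 was the least expressed of the 28 genes with a peak, at a quantile of 0.473. Of coding transcripts above the lowest quantile but under 0.5, 2.06% had one, and from 0.5 to under 0.6 28.4%. BRCA2 stood near the upper end of the first range, which is wider than the others, and the share close to its own level was not worked out. XRCC2, a factor of strand exchange, had 3.85 around the stop, 2.26 in the 3' UTR and 2.07 at the transcript start. XRCC3, a further factor of that step, had 2.19 near the stop codon. The motors RAD54L (0.789) and RAD54B (0.557), RAD51C (0.730), RAD51L1 (now RAD51B, 0.511), RAD52 (0.691), RAD51AP1 (0.686) and the RAD50 subunit of the MRN complex (0.721) had no listed peak. Quantiles of genes with and without a peak overlapped in this group: RAD54L stood above BRCA1 (0.712) and XRCC2 (0.732).

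Among checkpoint genes 4 of 6 had peaks (66.7%), and in each the highest peak lay near the stop codon. The median quantile of the 6 was 0.610, and from 0.6 to under 0.7 52.1% of coding transcripts had a peak. ATM, the kinase that answers double-strand breaks (chromosome 11, 107598769 to 107745036), had 1 peak of 2.79 in its last exon, 85 nt upstream of the stop codon (-85), at a quantile of 0.608. ATR, the kinase that answers single-stranded DNA, had none at 0.578, a level at which 28.4% of coding transcripts had a peak. RAD9A and RAD1, subunits of the sliding clamp that activates ATR, had 3.73, 2.26 and 2.06 and a single 2.71, and RAD17, which loads the clamp, had 3.42. RAD9B, a relative of RAD9A, had none at 0.358. In end joining and single-strand break repair only XRCC1, a scaffold for single-strand break repair, had a peak, 3.27 at the transcript start. It was 1 of 4 genes with a median quantile of 0.941, and at 0.9 and over 69.3% of coding transcripts had a peak. XRCC5 and XRCC6, the Ku subunits that hold broken ends, had none at quantiles of 0.949 and 0.977, nor did XRCC4, the partner of ligase 4, at 0.544. RAD18, a ubiquitin ligase of post-replication repair, had none at 0.617.

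The rule also took in 4 genes that are named alike but are not known as core repair or checkpoint factors. RAD54L2, a chromatin remodeller that acts with nuclear receptors (chromosome 3, 51550636 to 51672652), had the highest score of all 57 peaks, 5.83 in exon 22 (1171 nt), above 98.4% of the peaks of the table. ERCC6L, a helicase of mitotic chromosomes, had 4 peaks in exon 2 (4042 nt) of 3.54, 2.37, 2.10 and 2.74. The cohesin subunit RAD21 (0.937) and XRCC6BP1 (now ATP23, 0.592), a mitochondrial protease, had none. Without these 4 genes, 26 of 50 had a peak (52.0%).

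**Figure D2:**
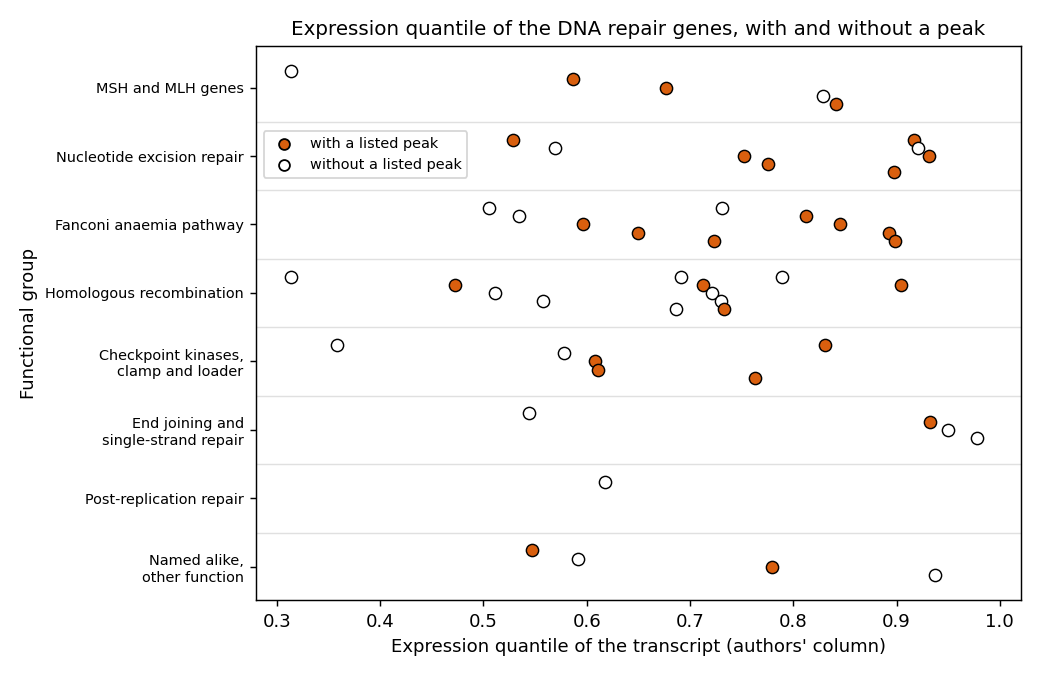
Each point is 1 of 50 repair genes, placed by the authors' expression quantile on the x axis and by functional group on the y axis; filled points had a listed peak and open points had none. Filled and open points overlap in most groups, and the open points at the far right are XRCC6 and XRCC5.

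Repair genes with and without a peak overlapped in expression. The median quantile was 0.769 for the 28 genes with a peak and 0.689 for the 26 without, and those with a peak ran from 0.473 to 0.932, while genes without one stood below, within and above that range. The RNA came from bulk cultures, so a low quantile from few expressing cells and one from little RNA per cell cannot be told apart. Above the lowest quantile but under 0.5, 1 of 2 repair genes had a peak (BRCA2), and 2.06% of coding transcripts. From 0.5 to under 0.6, 4 of 12 repair genes had a peak, and 28.4% of coding transcripts. From 0.6 to under 0.7 it was 4 of 7, against 52.1%, from 0.7 to under 0.8 7 of 13, against 65.1%, and from 0.8 to under 0.9 8 of 9, against 71.5%. At 0.9 and over it was 4 of 9 (44.4%), against 69.3%. Those without a peak in that top range included XRCC6, XRCC5, RAD21 and ERCC1, and those with one were XRCC1, RAD23B, ERCC2 and XRCC3. These counts are small, and the difference in any 1 range rests on a few genes.

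**Figure D3:**
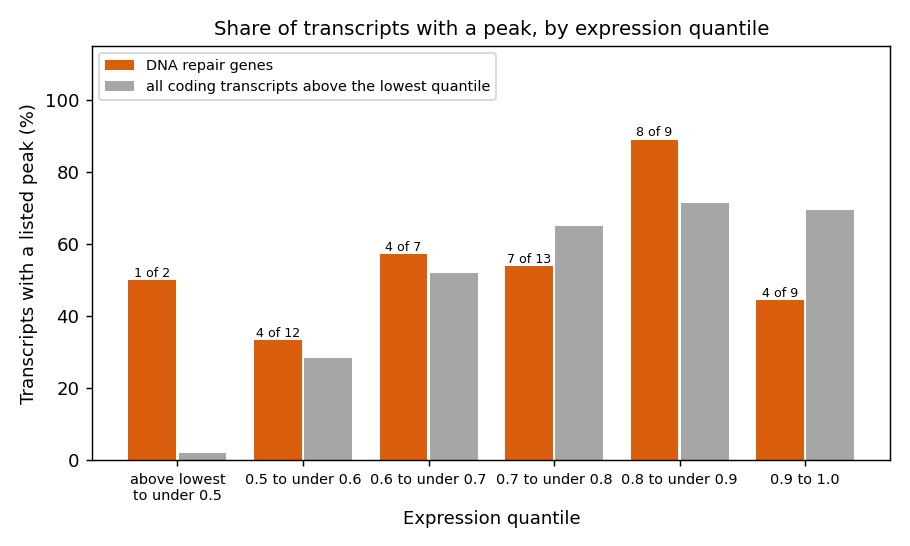
Bars give the percentage of transcripts with a listed peak, for repair genes (left bar, with their counts) and for all coding transcripts above the lowest quantile (right bar), by range of the expression quantile on the x axis. Repair genes stand below the other bars at 0.9 and over (44.4% against 69.3%) and above them from 0.8 to under 0.9 (88.9% against 71.5%). The first pair of bars (50% against 2.06%) rests on 1 gene of 2, BRCA2.

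Length moved with the peaks too. Taking the longest coding transcript of each gene in GENCODE as a stand-in, found for all 54, the median was 4468 nt for genes with a peak and 3054 nt for those without. Such a length was found for 14123 of the 15273 coding transcripts above the lowest quantile, with medians of 3785 and 3010 nt. The longest exon of the stand-in transcripts had a median of 2725 nt in repair genes with a peak, against 1069 nt in those without. For the same 14123 coding transcripts the medians were 1952 and 1481 nt. Of repair genes above the lowest quantile, 6 of 18 under 3000 nt had a peak, 13 of 22 from 3000 to under 6000 nt and 9 of 12 of 6000 nt and over. The shares of these coding transcripts in the same ranges were 39.7%, 52.5% and 57.5%. The part of length in which genes had a peak was not tested.

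Along the transcript, 30 of the 57 peaks (52.6%) lay in the coding sequence, against 36.6% of the 12424 peaks of the table with a segment. Another 15 (26.3%) lay around the stop codon, against 27.6%, and 5 (8.77%) in the 3' UTR, against 20.5%. The transcript start, to which the authors' annotation gives positions of up to 199 nt, held 7 (12.3%), against 12.5%, and the rest of the 5' UTR none, against 2.78%. The 30 coding sequence peaks came from only 14 genes, and 5 of these (MSH6, MLH3 and ERCC5 with 4 each, ERCC4 and ERCC6L with 3 each) carried 18, so the share rests on few genes. Of these 30 peaks, 27 (90.0%) lay in exons of 400 nt or more, against 91.4% of all coding sequence peaks. Among the exceptions were 1 peak each of ERCC3 (exon 3, 237 nt) and ERCC5 (exon 9, 232 nt). Taken over coding sequence peaks, the length of the exon had a median of 2545 nt, against 1335 nt in the whole table. An exon with several peaks counted once for each, so the long exons of MSH6 and MLH3 counted 4 times each. Stop codon peaks of repair genes had a median score of 2.72, against 3.45 for all stop codon peaks, and coding sequence peaks 3.17, against 3.14.

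**Figure D4:**
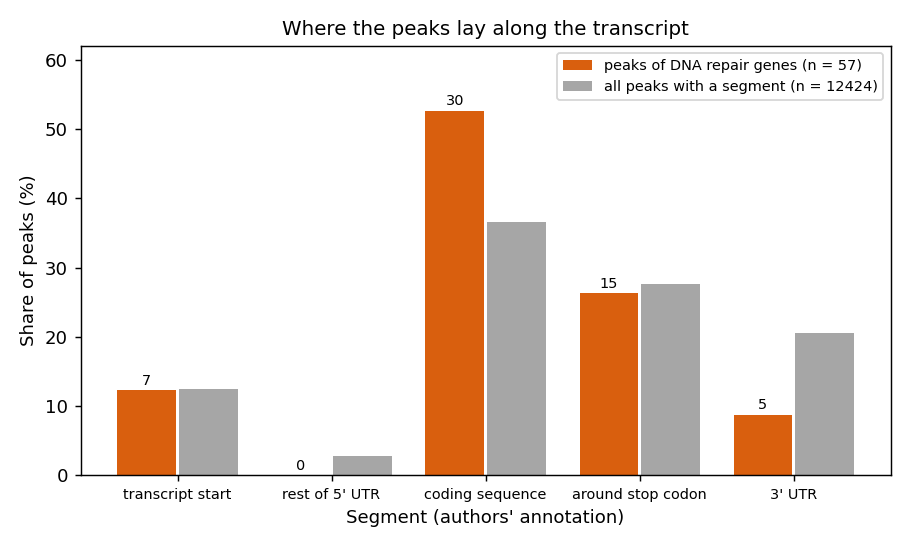
Bars give the percentage of peaks in each segment of the authors' annotation, for the 57 peaks of repair genes (left bar, with counts) and for the 12424 peaks of the table with a segment (right bar). The coding sequence holds 52.6% of the repair gene peaks, against 36.6%, and the 3' UTR 8.77%, against 20.5%.

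Peaks at the transcript start were found in 7 genes: ERCC2, ERCC3, ERCC4, FANCG, FANCL, XRCC1 and XRCC2. In ERCC2 and XRCC1 it was the only peak, and in FANCG it was the highest. Their scores ran from 2.00 to 3.55. Of the 16 genes with at least 2 peaks, 9 had all of them in 1 exon. The distance between neighbouring peaks of a transcript ran from 49 nt (ERCC6L) to 2403 nt (FANCG), with a median of 674 nt over 29 pairs. In 8 pairs it was 300 nt or less. The count of genes with all peaks in 1 exon and these distances were not worked out for the whole table. Neither is therefore shown to be particular to repair genes. Fragments of RNA were about 100 nt long, so the 49 nt between the nearest peaks is less than the length of a fragment.

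Beyond the genes of the rule, 107 other genes of repair and checkpoint signalling were looked up in the table, and 66 of them had a peak (61.7%), beside 51.9% of the 54 genes, 45.8% of coding transcripts above the lowest quantile, where all 107 stood, and 27.9% of all transcripts. By expression, 6 of 11 of these other genes had a peak from 0.5 to under 0.6, against 28.4% of coding transcripts. From 0.6 to under 0.7 it was 13 of 28, against 52.1%, and from 0.7 to under 0.8 17 of 26, against 65.1%. From 0.8 to under 0.9 it was 15 of 18, against 71.5%, and at 0.9 and over 15 of 21, against 69.3%. None of the 3 lower ones had a peak, against 2.06%. The median quantile of the 107 genes was 0.751. The median score of their peaks was 3.01. The highest were the translesion polymerase REV1 (5.86, exon 6), WDR48 (5.82), which activates the deubiquitinase USP1, the glycosylase NEIL1 (5.78, transcript start), TDP1 (5.25), which clears trapped topoisomerase I, ATRIP (5.02), the partner of ATR, and the polymerase POLL (4.79). The most expressed without a peak were DDB1 (0.966), a damage-binding adaptor, the ligase LIG1 (0.966), the nuclease APEX2 (0.953) and the glycosylase MPG (0.932). Some partners of the genes above had peaks where those had none. These pairs lie outside the stated rule for naming genes, and other partners did not differ: neither RAD50 nor MRE11A had a listed peak. ATRIP had a peak and ATR did not, and PRKDC (2 peaks, top score 4.52), the kinase that the Ku subunits recruit, had peaks and XRCC5 and XRCC6 did not.

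Some values bear on how far single peaks can be read. Both FANCA peaks lay within 50 nt of an exon of ZNF276 on the other strand, a gene that itself had 6 listed peaks, the FANCI peak at 4190 lay beside an exon of POLG, and the ERCC4 peak of 4.41 beside an exon of the noncoding AC010401.1. The labels' protocols mention no marking of strand, so for these 4 of the 31 matched peaks the gene of origin cannot be told apart. Among unmatched genes, the span of XRCC3 in the table overlaps that of KLC1, on the other strand with 1 listed peak, by 3935 nt, and that of FANCL overlaps VRK2, likewise with 1 peak, by 628 nt. Whether the peaks of XRCC3 and FANCL lie in these overlaps was not tested. GENCODE names pseudogene copies after 6 of the 54 genes (FANCD2, RAD1, RAD17, RAD23B, RAD51AP1 and XRCC6), and how reads from such copies were treated is not given in the sources used here, so their values are uncertain.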

How the data were processed

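Per the labels' protocols, poly(A)-selected RNA of HepG2 cells was broken into fragments of about 100 nt, precipitated with an anti-m6A antibody or kept as input, reverse transcribed with random primers and sequenced. Which aligner, peak caller and genome build were used is not given in the sources used here. Per the file headers and the values, the authors' table gives an expression quantile, which is a fraction from 0 to 1, for each transcript. It also holds a score for each peak, deposited by the authors without a stated scale, and the peak's position, exon and segment. No column belongs to a single library, so depth is unknown, and neither a comparison of m6A-IP with input libraries nor replicate error could be computed. No column of per-sample values was left out.

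The rule on symbols was applied to all rows. Shares, medians and ranges were computed with Python 3.11.15, pandas 2.3.3 and scipy 1.17.1. Most of them, but not the spacing of peaks within a gene, were set beside the same values over all rows or coding rows. No set test was made. Rows were matched to GENCODE release 29 by current symbol or RefSeq synonym, strand, span and peak exons, exactly or within 10 nt; matched rows shared no start coordinate with GRCh38. RRACH and GGAC were searched on the transcript strand alone, with the motif's A within 50 nt of the listed position, and control windows lay 300 nt to either side. A GGAC site followed by A, C or U is also an RRACH site. The motif search and the coordinate functions were tested on simulated data. The members, lists and functional groups were chosen with earlier results of these data known. The ranges of transcript length were chosen after seeing the data. Genes named are the 12 highest-scoring members, the 5 with the most peaks, the leading member and the most expressed member without a peak of each group, the 8 most expressed without a peak, BRCA1, BRCA2, ATM and ATR; other members are named with whether they had a peak. Values of 4 members are not reported here one by one, and these members are left out of the plots of single genes. Of 115 other repair genes listed, 107 were found in the table under the spelling used.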

Additional observations from a re-analysis of the deposited data

How the results depend on the processing

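Of 33 alternative settings, 26 left the value within the 95% interval (Wilson for shares, binomial for medians) of the main setting's value, and 7 did not. Some of them could not have changed the value. Each gene had 1 row, all 54 were coding, and all 107 other genes stood above the lowest quantile. No peak lay in the rest of the 5' UTR. A wider window or a looser motif could not change RRACH at 11 of 11 exactly matched peaks. With only peaks of a score of 3 or more, 33.3% of the repair genes had a peak, and 37.4% of the other repair and checkpoint genes; at 4 or more 11.1% of the repair genes did. With the highest-scoring peak of each gene, 46.4% of peaks lay in the coding sequence, 39.3% around the stop codon and 3.57% in the 3' UTR. The median score was then 3.37, against 3.55 for the highest-scoring peak of each transcript in the whole table. For the motif, the main setting was the exact matches (11 peaks of 5 genes, all with RRACH within 50 nt). The 96.8% given above, with the tolerance of 10 nt, counted as an alternative. GGAC, which is another motif, was found near 63.6% of the exactly matched peaks and also counted as an alternative. Counting 1 row per gene, leaving out genes at the lowest quantile, genes named alike or transcript start peaks kept the share of genes with a peak between 48.1% and 53.8%. No paired analysis was possible because the columns carry no library and so no replicate number, and leaving out libraries was not run for the same reason. With 54 genes and 57 peaks, a few genes move each share, and a gene without a listed peak is one in which none was detectable at this unknown depth.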

Other observations

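Among the other repair and checkpoint genes looked up, the double-strand break response had peaks in 25 of 35 genes and 43 peaks, led in number by the scaffolds TP53BP1 (4 peaks, top score 2.90) and BTBD12, now SLX4 (4 peaks, 3.49). MDC1, a scaffold on damaged chromatin, had 3 (3.52), LIG4, the ligase of end joining, 3 (2.82) and BRCC3, a deubiquitinase, 3 (3.10). Interstrand crosslink repair had peaks in 6 of 8 genes, among them the nuclease MTMR15, now FAN1 (4.19), and none of its 9 peaks was a transcript start peak. Translesion synthesis and direct reversal had peaks in 8 of 14 genes, and 4 of their 11 peaks lay at the transcript start, PCNA (4.66), the sliding clamp of replication, included. Of all peaks with a segment 12.5% lay there, and with so few peaks per group differences from that share were not tested. Base excision and single-strand break repair had peaks in 11 of 22 genes, with PARP1, a sensor of strand breaks, at 3.22 (transcript start), and nucleotide excision repair in 10 of 17, with the damage sensor XPC at 4.79. The median quantile was 0.690 for the double-strand break response and 0.699 for translesion synthesis and direct reversal. Their shares of 71.4% and 57.1% stand beside 52.1% of coding transcripts from 0.6 to under 0.7. Interstrand crosslink (75%), nucleotide excision (58.8%) and base excision and single-strand break repair (50%) had medians of 0.708, 0.769 and 0.793. From 0.7 to under 0.8 the share of coding transcripts was 65.1%. None of these differences was tested. Genes named in this paragraph beyond the stated rule were chosen after their values were seen.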
